A study of Mus musculus with 20 samples.

Results

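Hipk1, Hipk2 and Hipk3 encode the homeodomain-interacting protein kinases and were measured as RNA in mouse macrophages grown from bone marrow (BMDM). They are 3 of the 14456 genes in the deposited table. They were picked by gene symbol after the Ensembl identifiers had been matched to GENCODE M21. The family was chosen from measured values. These were taken to be those of the libraries exposed to exosomes of high glucose macrophages, because the study names Hipk2 as raised there, and comparisons that include these libraries are given for the 3 genes as a description, without a test. The other comparisons were known when the family was chosen, so their p-values for the 3 genes are not independent evidence if they entered the choice.

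The 20 libraries form 5 groups of 4. In the glucose experiment, BMDM were kept in 25 mM glucose (high glucose) or in 5.5 mM glucose with 19.5 mM mannitol, a sugar alcohol that balances osmolarity (normal glucose). In the exosome experiment, naive BMDM received PBS, exosomes of BMDM grown in normal glucose (BMDM–NG-exo) or exosomes of BMDM grown in high glucose (BMDM–HG-exo). Exosomes are small vesicles that cells release. All cells were of wild type C57BL/6 mice and had been differentiated with M-CSF in culture, so each library is the RNA of a whole culture and not of a tissue. In such bulk RNA, fewer cells with a transcript and less transcript per cell cannot be told apart. The labels do not say whether the libraries of a group came from separate mice. For the exosome experiment, the study states that the samples came from separate exosome preparations. The p-values measure the spread between these libraries, and how far it is technical is not known.

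HIPKs are nuclear serine/threonine kinases that were found through their binding to homeodomain transcription factors. HIPK2, the best studied, is kept low in resting cells by ubiquitin ligases of the SIAH family and by WSB1. After DNA damage it is stabilized and phosphorylates p53 on a serine that favours apoptotic target genes. The kinases also act on transcriptional corepressors and on Wnt and TGF-beta signalling, and they are close relatives of the DYRK and CLK kinases. Much of the control of HIPK2 is on the protein, which RNA counts do not measure.

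In GRCm38 coordinates, all 3 genes lie on the minus strand and are protein-coding. Hipk1 (ENSMUSG00000008730) is on chromosome 3, from 103739815 to 103791563. Hipk2 (ENSMUSG00000061436) is on chromosome 6, from 38694390 to 38876165, and is the longest of the 3 with a span of 181776 bases, against 51749 bases for Hipk1 and 67966 bases for Hipk3. Hipk3 (ENSMUSG00000027177) is on chromosome 2, from 104426481 to 104494446. The counts cover annotated exons, whose union is 10914 bases in Hipk1, 8836 bases in Hipk2 and 7987 bases in Hipk3. Hipk3 is also the source of a well-known circular RNA. Total RNA libraries hold linear and circular transcripts, and no value is given for either form on its own.

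The 250 bases before a RefSeq transcription start are shown for the 3 genes because Hipk1 and Hipk2 rose together in high glucose while Hipk3 did not pass the test. They are from assembly GRCm38.p6, minus strand, written 5′ to 3′, at chr3:103791562-103791811 for Hipk1, chr6:38876191-38876440 for Hipk2 and chr2:104494490-104494739 for Hipk3. Capitals mark the GC box letters GGGCGG, the core of sites for Sp1-like factors, on either strand. Neighbouring matches may overlap. Hipk1 and Hipk2 each have another RefSeq start with a window of its own, and the start nearest to the GENCODE gene start was used.
Hipk1: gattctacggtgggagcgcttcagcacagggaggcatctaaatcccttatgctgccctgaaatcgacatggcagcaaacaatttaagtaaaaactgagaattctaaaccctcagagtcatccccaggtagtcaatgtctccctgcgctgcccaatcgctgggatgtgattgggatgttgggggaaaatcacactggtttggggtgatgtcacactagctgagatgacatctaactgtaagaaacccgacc
Hipk2: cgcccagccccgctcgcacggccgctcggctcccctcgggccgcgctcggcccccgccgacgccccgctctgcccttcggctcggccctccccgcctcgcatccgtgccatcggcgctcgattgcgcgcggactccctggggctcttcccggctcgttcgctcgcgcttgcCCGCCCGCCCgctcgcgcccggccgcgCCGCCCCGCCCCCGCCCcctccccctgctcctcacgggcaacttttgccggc
Hipk3: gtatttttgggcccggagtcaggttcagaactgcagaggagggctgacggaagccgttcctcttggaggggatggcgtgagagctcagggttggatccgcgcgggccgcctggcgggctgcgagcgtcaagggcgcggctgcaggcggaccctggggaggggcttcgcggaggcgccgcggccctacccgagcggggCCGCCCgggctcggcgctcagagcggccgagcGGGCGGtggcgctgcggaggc

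At these starts, the windows of Hipk2 and Hipk3 were richer in G and C than that of Hipk1. The GC content was 80.8% in Hipk2 with 43 CpG dinucleotides, 74% in Hipk3 with 31, and 48.8% in Hipk1 with 6. The median over the windows of 27025 genes was 52% with 6 CpG dinucleotides. The Hipk2 window held 5 GC box matches and the Hipk3 window 2, and the Hipk1 window had none. At least 1 GC box was present in 32.9% of all windows. None of the 3 windows held the E-box letters CACGTG (present in 6.05% of all windows), the AP-1 letters TGANTCA (6.87%) or the TATA box letters TATAAA (13%), each searched on both strands. The composition depended on the start, since the window of the other Hipk1 start, at chr3:103791276-103791525, had a GC content of 69.6% with 24 CpG dinucleotides, and that of the other Hipk2 start, at chr6:38837312-38837561, had 52.8% with 1. Neither of these held any of the 4 motifs. A match of letters is a description and does not show that a factor binds.

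All 3 genes were well expressed, and their levels rested on many reads. The reads behind a value, recovered from the deposited table, numbered between 11174 and 18790 per library for Hipk1, between 8446 and 15157 for Hipk2 and between 5046 and 7977 for Hipk3. The counting error of a single value was at most 0.946% for Hipk1, 1.09% for Hipk2 and 1.41% for Hipk3, and it leaves out the variation between cultures. The libraries held between 34016445 and 56310712 reads on listed genes (median 43311931). Normalized counts below are read counts divided by 1 size factor per library.

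Per kb of exon, the mean level over the 20 libraries was 1333 normalized counts for Hipk1, 1309 for Hipk2 and 789 for Hipk3. On this scale, 92.8%, 92.7% and 87.2% of the 14421 genes with a length were lower. The order of the 3 genes was the same when the longest annotated transcript served as the length, with 1833, 1506 and 845 normalized counts per kb. No value is given for Hipk4, the remaining family member, which was counted in the list of CMGC relatives below.

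Hipk2 varied most. Its highest library was 1.43 times its lowest over the 20 libraries, against 1.22 for Hipk1 and 1.19 for Hipk3. Hipk2 also had the largest spread within every group. Its coefficient of variation was between 3.84% in PBS and 6.36% in BMDM–NG-exo, against at most 3.14% for Hipk1 and at most 3.40% for Hipk3. The spread of Hipk2 within groups was thus several times its counting error.

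**Figure D1:**
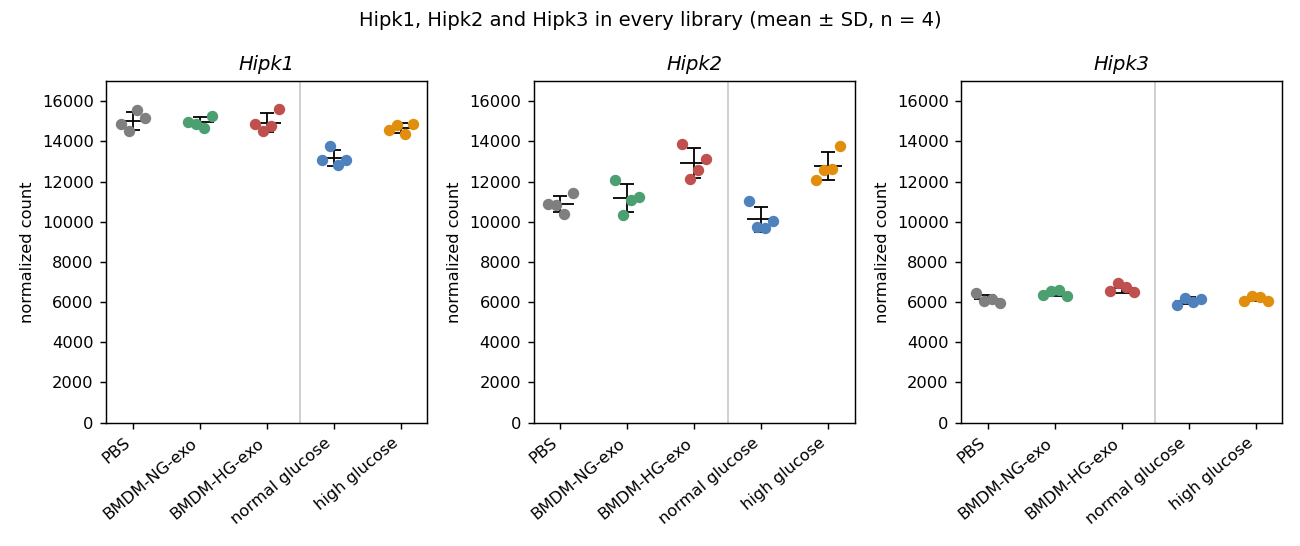
Normalized counts (y axis, from 0) of Hipk1, Hipk2 and Hipk3 in each library (points) of the 5 groups (x axis), with the mean and SD of 4 libraries in black and a grey line between the 2 experiments. Hipk2 was highest in BMDM–HG-exo and in high glucose, Hipk1 was lowest in normal glucose, and Hipk3 had a narrow range from 5838 to 6952.

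The first comparison asked how the kinases responded to high glucose itself. Hipk2 rose by 26.1% in high glucose and Hipk1 by 11.3%, and Hipk3 did not pass the test. The 2 genes that rose did so without overlap between the groups.

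The 4 normal glucose libraries had Hipk2 at 11013, 9718, 9694 and 10039 normalized counts, and the 4 high glucose libraries at 12091, 12580, 12603 and 13751. The lowest high glucose library was above the highest normal glucose library, and each group had 1 library on the high side. The means were 12756 ± 704 (SD, n = 4) and 10116 ± 618 (SD, n = 4), a log2 fold change of 0.33 (SE 0.0414, limma with Benjamini-Hochberg adjusted p = 1.905e-07). By an exact two-sided permutation test p was 0.0286, the smallest value that 4 against 4 libraries allow, and 0.0857 after adjustment over the 12 exact tests of the family.

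Hipk1 had 13071, 13762, 12825 and 13052 normalized counts in normal glucose, against 14562, 14823, 14382 and 14885 in high glucose. The high glucose libraries were close together and all above the normal glucose libraries. The means were 14663 ± 234 (SD, n = 4) and 13178 ± 405 (SD, n = 4), a log2 fold change of 0.15 (SE 0.0342, limma adjusted p = 0.001535). The exact permutation p was 0.0286, or 0.0857 adjusted.

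Hipk3 had 5838, 6206, 6028 and 6176 normalized counts in normal glucose, against 6056, 6290, 6238 and 6074 in high glucose. The groups overlapped. The difference was 0.024 on the log2 scale (SE 0.0388, limma adjusted p = 0.7498; exact permutation p = 0.371, adjusted 0.533).

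Of the 3 genes, 2 were called in this comparison, both higher. Over all 14425 genes tested, 13.3% were called and 7.74% were called and higher, and 16.3% had groups that did not overlap. The direction of Hipk3 turned under quantile normalization (log2 difference -0.025), and there Hipk1 was no longer called (log2 fold change 0.083, adjusted p = 0.0889). Hipk1 was also not called without a variance trend (adjusted p = 0.077), and its adjusted p ran from 7.59e-05 to 0.0889 over 19 other settings. Hipk2 stayed called in all 19, with log2 fold changes from 0.27 to 0.38 and adjusted p from 6.53e-11 to 0.0302.

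The summed level of the 9 macrophage marker genes moved with the groups as well, from 639692 to 715120 normalized counts in normal glucose, while the high glucose libraries ran from 816845 to 887065. Of the 7 neutrophil markers, 4 were listed, with a sum of 5190 to 5794 in normal glucose, against 4476 to 5202 in high glucose. None of the 5 T cell, 4 dendritic cell, 5 mast cell and basophil or 4 erythroid markers was listed. One or more markers of B cells, fibroblasts and endothelium were listed, and their sums reached at most 68 normalized counts for B cells, 349 for fibroblasts and 445 for endothelium in any library. Their part in the change of Hipk1 and Hipk2 was not tested.

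Because each library carries all 3 kinases, ratios between them do not depend on the size factor. The log2 ratio of Hipk2 to Hipk3 was between 0.65 and 0.92 in normal glucose, against 1.00 to 1.18 in high glucose, a difference of 0.31 without overlap (exact permutation p = 0.0286, adjusted 0.0857). The log2 ratio of Hipk1 to Hipk3 was between 1.08 and 1.16 in normal glucose, against 1.20 to 1.29 in high glucose, a difference of 0.13, also without overlap (exact permutation p = 0.0286, adjusted 0.0857). Neither ratio passed the test after adjustment over the 12 exact tests. Starting from the smallest p that the design allows, this adjustment could hardly be passed, so no conclusion is drawn from it. The ratios were added after seeing the data.

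The log2 ratio of Hipk2 to Hipk1 was between -0.50 and -0.25 in normal glucose, against -0.27 to -0.11 in high glucose. The difference of 0.18 came with 1 overlap, since the ratio of normal glucose 1 was above that of high glucose 1 (exact permutation p = 0.0571, adjusted 0.137). A larger rise of Hipk2 than of Hipk1 was therefore not shown at this number of libraries.

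**Figure D2:**
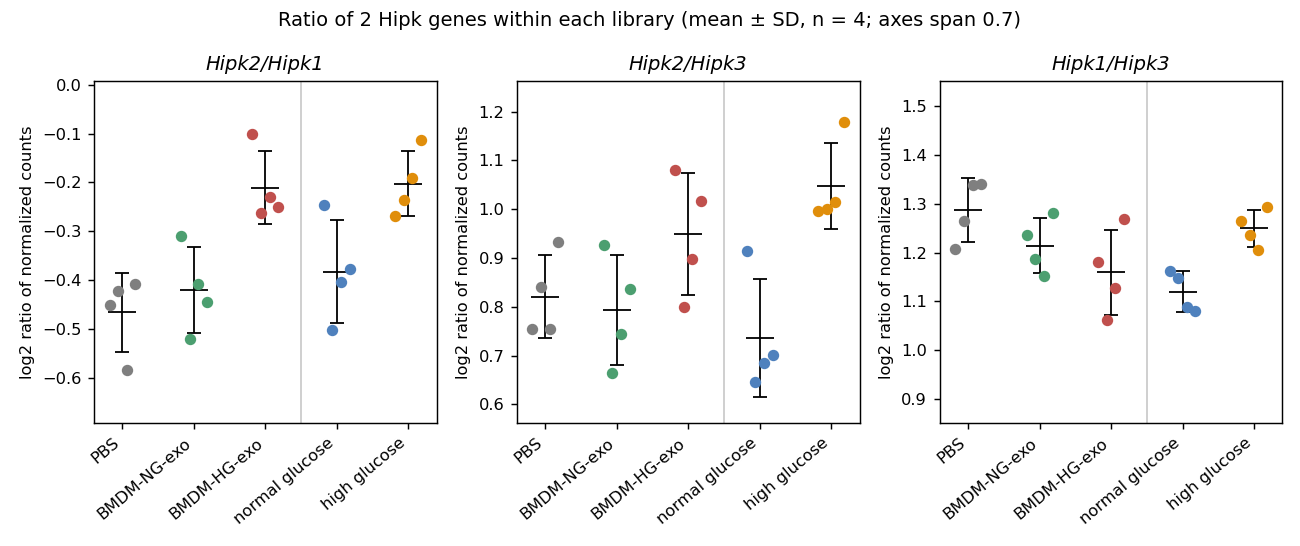
Log2 ratio of the normalized counts of 2 Hipk genes in each library (y axes span 0.7, points) in the 5 groups (x axis), with the mean and SD of 4 libraries in black. Hipk2/Hipk3 and Hipk1/Hipk3 did not overlap between normal and high glucose, and Hipk2/Hipk1 did not overlap between BMDM–HG-exo and the other 2 exosome groups.

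The second comparison asked what exosomes of normal glucose macrophages did. None of the 3 kinases passed the test for BMDM–NG-exo against PBS, and 3.34% of the 14413 genes tested were called. The Hipk2 normalized count was 10887, 10819, 10391 and 11409 with PBS and 12082, 10351, 11056 and 11224 with BMDM–NG-exo. The BMDM–NG-exo libraries held both the highest and the lowest of these 8 values. The log2 difference was 0.038 (SE 0.0422, limma adjusted p = 0.7793; exact permutation p = 0.514).

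Hipk1 had 14883, 14503, 15582 and 15147 normalized counts with PBS and 14978, 14853, 14665 and 15276 with BMDM–NG-exo. The BMDM–NG-exo values lay within the range of PBS, with a log2 difference of -0.0079 (SE 0.0332, limma adjusted p = 0.9592; exact permutation p = 0.743). Hipk3 had 6449, 6038, 6162 and 5978 normalized counts with PBS and 6359, 6528, 6595 and 6284 with BMDM–NG-exo. For Hipk3, 2 of 4 BMDM–NG-exo libraries were above all PBS libraries, and the log2 difference of 0.066 (SE 0.0388) did not pass the test (limma adjusted p = 0.5013; exact permutation p = 0.0857, adjusted 0.171).

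The third comparison concerns the exosomes of high glucose macrophages, whose values chose the family, so it carries no test for the members. With BMDM–HG-exo, the Hipk2 normalized count was 13846, 12107, 12591 and 13118. All 4 values lay above the 8 control values, which ran from 10351 to 12082. The mean was 12916 ± 745 (SD, n = 4) against 11028 ± 563 (SD, n = 8) in the combined PBS and BMDM–NG-exo libraries, a log2 difference of 0.23 (SE 0.0399) or 17.1%. The margin between the groups was narrow. The lowest BMDM–HG-exo library and the highest control library, BMDM–NG-exo 1, were 24.9 normalized counts apart, while the counting error of each was 105 and 98.1 normalized counts. Over all genes, 1.17% had BMDM–HG-exo values that did not overlap the controls, and 0.201% were called, which here needed an adjusted p under 0.05 together with a log2 change of 0.15 or more in either direction. Nothing is read from these shares for Hipk2, since the contrast chose it.

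Hipk1 showed no such separation. Its BMDM–HG-exo values were 14844, 14518, 14769 and 15604, within or close to the control range of 14503 to 15582, and the log2 difference was -0.0052 (SE 0.0303). Hipk3 had 6549, 6952, 6756 and 6478 normalized counts with BMDM–HG-exo against 5978 to 6595 in the controls. For Hipk3, 2 of 4 libraries were above all controls, and the log2 difference was 0.086 (SE 0.0361) or 6.13%.

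Set against each control on its own, the log2 difference of Hipk2 was 0.21 (SE 0.0422) from BMDM–NG-exo and 0.25 (SE 0.0422) from PBS. For Hipk3 it was 0.053 (SE 0.0388) from BMDM–NG-exo and 0.12 (SE 0.0388) from PBS. Of all 14413 genes tested, 2 were called against BMDM–NG-exo and 779 against PBS, so differences from PBS were common. These contrasts share libraries with one another and with BMDM–NG-exo against PBS. Hipk3 had its group means in the order PBS, BMDM–NG-exo, BMDM–HG-exo (6157 ± 209, 6441 ± 145 and 6684 ± 214, SD, n = 4 each), and neighbouring groups in this order overlapped.

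Within a library, the log2 ratio of Hipk2 to Hipk1 was between -0.26 and -0.10 with BMDM–HG-exo and between -0.58 and -0.31 in the controls, a difference of 0.23 without overlap. The log2 ratio of Hipk2 to Hipk3 was 0.14 higher with BMDM–HG-exo and that of Hipk1 to Hipk3 differed by -0.091, and both overlapped with the controls.

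The labels of the exosome libraries carry 4 dates, each shared by 1 library of every group. Within each date, Hipk2 was higher with BMDM–HG-exo than with BMDM–NG-exo, by between 0.19 and 0.23 on the log2 scale, and than with PBS, by between 0.16 and 0.35. The difference from BMDM–NG-exo had nearly the same size at the 4 dates, although the level of Hipk2 with BMDM–NG-exo itself ran from 10351 to 12082 normalized counts. BMDM–NG-exo 1, the control closest to the BMDM–HG-exo libraries, had the date of the highest BMDM–HG-exo library, at 13846. Between BMDM–NG-exo and PBS, Hipk2 was higher at 2 of 4 dates, with log2 differences from -0.064 to 0.15. Hipk3 was higher with BMDM–HG-exo than with BMDM–NG-exo at 4 of 4 dates, by 0.035 to 0.091. Hipk1 was higher at 2 of 4. For Hipk3 the groups overlapped, and the log2 difference of 0.053 had an SE of 0.0388. How many of all genes kept 1 direction at the 4 dates was not counted. Nothing is therefore read from the count of dates for Hipk3.

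**Figure D3:**
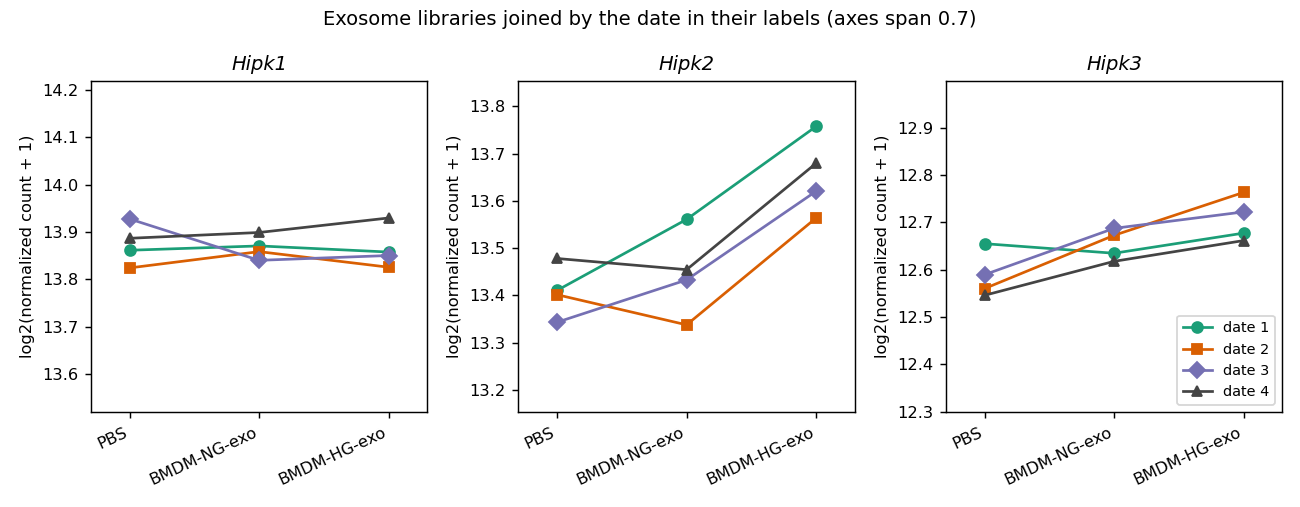
Log2(normalized count + 1) of the 3 genes in the 12 exosome libraries (y axes span 0.7), with the 3 libraries of 1 label date joined by a line. The 4 lines of Hipk2 climb from BMDM–NG-exo to BMDM–HG-exo by 0.19 to 0.23, and those of Hipk1 stay within 0.033 of level over the same step.

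Across the 5 groups, the order of Hipk2 levels was normal glucose (10116 ± 618), PBS (10877 ± 417), BMDM–NG-exo (11178 ± 711), high glucose (12756 ± 704) and BMDM–HG-exo (12916 ± 745, all SD, n = 4). Only the step from BMDM–NG-exo to high glucose separated neighbours whose ranges did not overlap, and by 9.17 normalized counts, which is less than the counting error of either library (98.1 and 106). For Hipk1, only the step from normal glucose (13178 ± 405) to high glucose (14663 ± 234) did so, and the 3 exosome groups stood at 14934 ± 468, 14943 ± 257 and 15029 ± 454 (BMDM–HG-exo, BMDM–NG-exo and PBS). For Hipk3, all neighbours overlapped, from 6062 ± 168 in normal glucose to 6684 ± 214 with BMDM–HG-exo. The 2 experiments were separate, and levels set across them carry no test.

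**Figure D4:**
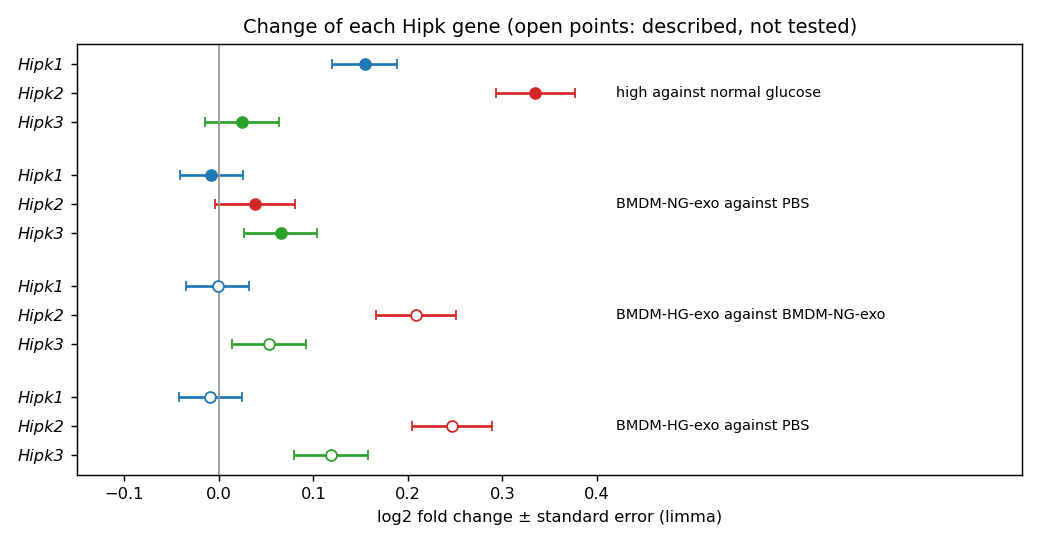
Log2 fold change with its standard error from limma (x axis) of each Hipk gene (y axis) in 4 comparisons, with filled points for tested and open points for described comparisons. Hipk2 is at 0.33 in high glucose and at 0.21 and 0.25 with BMDM–HG-exo, the contrasts taken to have chosen the family. Hipk1 is at 0.15 in high glucose (0.083 and not called under quantile normalization) and close to 0 in the other 3 comparisons.

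Genes at the Hipk loci were followed in the same fits. Tbxas1, which encodes thromboxane synthase, overlaps Hipk2 on the opposite strand without shared exons, and it fell where Hipk2 rose. Its normalized count was between 7256 and 7502 in normal glucose, against 6241 to 6593 in high glucose, a log2 fold change of -0.19 (SE 0.0377, limma adjusted p = 0.000418), and it stayed called in all settings run. In the exosome comparisons Tbxas1 did not pass the test, with log2 differences of -0.080 for BMDM–NG-exo against PBS (adjusted p = 0.342) and -0.057 for BMDM–HG-exo against the controls (adjusted p = 0.618). The library kit keeps the strand and the authors counted by strand, so that the 2 genes are separate in these counts as far as strand marking holds. Within the Hipk1 locus, the antisense gene Gm15886 and the intronic genes Gm43387 and Gm43149 had means between 43.6 and 64.1 normalized counts in the groups compared, and none passed the test.

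The list of CMGC relatives of the HIPKs held 11 genes, Hipk4 among them. Of these, 9 were tested (DYRK and CLK kinases and Prpf4b), and none was called in high glucose, beside 13.3% of all genes. The smallest adjusted p was 0.179, and 1 had an unadjusted p under 0.05, beside 25.4% of all genes. Their median log2 fold change was 0.0043, against -0.0031 over all genes. The largest was that of Dyrk3, a low gene named here after its values were seen, with 0.34 (SE 0.298, limma adjusted p = 0.524) and between 31.8 and 75.8 normalized counts in normal glucose, against 48.6 to 92.2 in high glucose. The edgeR and DESeq2 fits also called none, and 1 of 8 fits that left out a library called 1, Clk3, without normal glucose 1 (log2 fold change 0.19, adjusted p = 0.0138). None was called for BMDM–NG-exo against PBS or for BMDM–HG-exo against the controls, with 1 and 0 at an unadjusted p under 0.05, beside 13.5% and 10.5% of all genes.

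Among 13 genes of HIPK turnover and sumoylation, 1 was called in high glucose and 1 with BMDM–NG-exo. Mdm2, the ubiquitin ligase of p53, rose by 0.13 on the log2 scale in high glucose (SE 0.0389, limma adjusted p = 0.019), from 6006 to 6498 normalized counts up to 6678 to 7032. This call held in 5 of 8 fits that left out 1 library and was lost under quantile normalization, without a variance trend and with the replicate block. Siah2, a ligase that marks HIPK2 for degradation, fell with BMDM–NG-exo, from 461 to 603 normalized counts down to 309 to 415 (log2 fold change -0.50, SE 0.120, limma adjusted p = 0.0102). It was called in 10 of 12 fits that left out 1 library, and not without a variance trend. The call was lost without PBS 1 and without BMDM–NG-exo 3. The 12 fits include those without a BMDM–HG-exo library, which cannot change this fold change. With BMDM–HG-exo, Siah2 was at 330 to 462 normalized counts, so low values were not particular to BMDM–NG-exo. In high glucose, Siah2 differed by 0.0054 (adjusted p = 0.985). Wsb1, the other ligase subunit known for HIPK2, had a log2 difference of 0.11 in high glucose (adjusted p = 0.086) and of -0.019 with BMDM–NG-exo (adjusted p = 0.918). The share called was 7.69% in each comparison, beside 13.3% and 3.34% of all genes.

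Of 30 partners and substrates, 26 were tested. In high glucose 3 rose and none fell, and with BMDM–NG-exo 3 fell and none rose. The share called of 11.5% was below the 13.3% of all genes in high glucose and above the 3.34% with BMDM–NG-exo. Daxx, a death domain-associated protein of nuclear bodies that HIPK1 and HIPK2 bind, rose in high glucose (log2 fold change 0.36, SE 0.0590, limma adjusted p = 2.31e-05). Its normalized count went from between 1992 and 2553 to between 2679 and 3058. Axin1, a scaffold of the Wnt pathway, rose by 0.23 (SE 0.0498, adjusted p = 0.00118), and the nuclear body protein Sp100 by 0.20 (SE 0.0495, adjusted p = 0.00383) with overlap between the groups.

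With BMDM–NG-exo, the genes that fell were Sp100 by 0.30 (SE 0.0468, adjusted p = 5.13e-05), Daxx by 0.28 (SE 0.0558, adjusted p = 0.00131) and Pml by 0.25 on the log2 scale (SE 0.0575, adjusted p = 0.00612). Pml organizes the nuclear bodies that hold Sp100 and Daxx. With BMDM–HG-exo, Sp100 ran from 4056 to 4620 normalized counts, against 5102 to 5528 with PBS. Daxx ran from 2190 to 2540 against 2525 to 2711, and Pml from 1620 to 1911 against 2238 to 2489. Lower values than with PBS were thus not particular to BMDM–NG-exo. No test of BMDM–HG-exo against PBS is given for these genes. The summed macrophage markers were also lower with BMDM–NG-exo (726605 to 781834 normalized counts) than with PBS (803030 to 848582) and stood at 743390 to 766656 with BMDM–HG-exo. The 4 listed neutrophil markers summed to 5821 to 6018 with PBS, 5483 to 5633 with BMDM–NG-exo and 4777 to 5542 with BMDM–HG-exo. Their part in the exosome comparisons was not tested. Sp100 and Daxx had thus opposite directions in high glucose and with BMDM–NG-exo, and the difference between the experiments was not tested. The median over the list was 0.050 in high glucose and -0.040 with BMDM–NG-exo, against -0.0031 and 0.0045 over all genes. Trp53, which encodes p53, did not pass the test in any of the 3 comparisons, with log2 differences of 0.12 (adjusted p = 0.19), -0.13 (adjusted p = 0.415) and -0.077 (adjusted p = 0.745). Runx1, a transcription factor that HIPK2 phosphorylates, did not either (0.039, -0.10 and 0.031).

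The p53 target genes did not move in 1 direction. Of 33, 31 were tested, and in high glucose 3 rose and 5 fell, or 25.8% against 13.3% of all genes, with a median log2 fold change of -0.042. Bax, a pore-forming apoptosis protein, rose by 0.36 (SE 0.0589, limma adjusted p = 2.87e-05), and Btg2, an antiproliferative factor, by 0.31 (SE 0.0547, adjusted p = 0.000103). Sesn1, a stress-induced inhibitor of mTORC1 signalling, fell by 0.27 (SE 0.0444, adjusted p = 3.62e-05), and Gadd45a, a growth arrest gene, by 0.41 (SE 0.0925, adjusted p = 0.00163). The others called were Mdm2, which rose as given above, and Ercc5, Bbc3 and Cdkn1a, which fell, Cdkn1a being called in 2 of 8 fits that left out 1 library and Bbc3 in 5 of 8. With BMDM–NG-exo 1 target was called, or 3.23% against 3.34% of all genes. It was Plk2, which rose by 0.17 (SE 0.0459, adjusted p = 0.0277) and was called in 6 of 12 fits that left out 1 library. The call was lost without each of PBS 1, PBS 2, PBS 3, BMDM–NG-exo 1, BMDM–NG-exo 2 and BMDM–NG-exo 3. The 12 fits include those without a BMDM–HG-exo library, which is in neither group compared. With BMDM–HG-exo, Plk2 ran from 4214 to 4747 normalized counts, against 3612 to 3983 with PBS. Trp53inp1, which HIPK2 binds and p53 induces, had log2 differences of -0.070, 0.030 and -0.059 in the 3 comparisons and did not pass the test. Of 22 DNA damage response genes, 1 was called in high glucose, or 4.55% against 13.3% of all genes. It was Brca2, which fell by 0.61 (SE 0.155, adjusted p = 0.00569) from a level of 240 to 321 normalized counts. None was called with BMDM–NG-exo, beside 3.34% of all genes. The median log2 difference of this list was -0.058 in high glucose, where 7 of 22 genes were above 0. It was 0.088 for BMDM–NG-exo against PBS (19 of 22) and 0.087 for BMDM–HG-exo against the controls (17 of 22). Over all genes the 3 medians were -0.0031, 0.0045 and 0.00031. These shifts of the list were not tested.

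Without a variance trend, 2 of the 12 list genes called in high glucose were called (Bax and Btg2), and 1 of 5 with BMDM–NG-exo (Sp100). A replicate block by library number takes the change in high glucose from the 2 numbers present in both groups. With it, 7 list genes were called.

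The 8 controls of BMDM–HG-exo include the BMDM–NG-exo libraries, in which some list genes had changed from PBS. A change shared by both kinds of exosome is therefore partly hidden in this comparison. Against PBS alone, 779 of 14413 genes were called, without a limit on the log2 change, and the lists were not counted there. In BMDM–HG-exo against all 8 controls, limma called none of the 99 list genes analysed here, beside 0.201% of all genes. The edgeR fit called none either. The numbers at an unadjusted p under 0.05 were 0 of 9 CMGC relatives, 1 of 13 turnover genes, 2 of 26 partners, 4 of 31 p53 targets and 3 of 22 DNA damage response genes, beside 10.5% of all genes. DESeq2 called 1, Pml, a gene picked out here after its values were seen. Pml had between 1620 and 1911 normalized counts with BMDM–HG-exo and between 1841 and 2489 in the controls, a log2 difference of -0.28 (SE 0.0657, limma adjusted p = 0.0612), and it was called in 6 of 23 other settings.

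The genes whose levels ran most like those of each kinase over the 20 libraries were different for the 3. Likeness was measured by Pearson's r of the log2 values after the mean of each experiment had been subtracted, over the 11699 genes whose mean normalized count reached 50. The values are a description, since the libraries share groups and size factors. The differences between groups were left in when the genes were picked. Group differences like those of the kinase are thus largely built into the choice and are no separate result. For Hipk2 the 5 highest were Cgnl1 (r = 0.91), which encodes a junction protein, Tns3 (0.91), a focal adhesion protein, Kcnj2 (0.90), a potassium channel, Prkcb (0.89), protein kinase C beta, and Sltm (0.89), a SAFB-like RNA-binding protein. All 5 had higher means in high than in normal glucose, with log2 differences of 0.14 to 0.43, and higher means with BMDM–HG-exo than in the controls, with 0.067 to 0.18. After the mean of each group had been subtracted instead, r with Hipk2 was 0.56 to 0.79, and these genes then ranked between 22 and 450.

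For Hipk1 the 5 highest were Sorl1 (r = 0.88), Rab7 (0.87), Timm29 (0.87), Clec5a (0.86) and Bcl6 (0.86). Sorl1 is a sorting receptor and Rab7 a GTPase of late endosomes, Clec5a is a myeloid lectin receptor and Bcl6 a transcriptional repressor. Their means differed by 0.16 to 0.60 between high and normal glucose and by at most 0.040 between BMDM–HG-exo and the controls, on the log2 scale. For Hipk3 they were Tcf12 (r = 0.87), Vwa5a (0.85), Cd200r4 (0.84), Tmx4 (0.80) and Cd36 (0.80), of which Tcf12 is an E-protein transcription factor and Cd36 a scavenger receptor for oxidized lipoproteins. The members themselves were less alike. Over the 20 libraries r was 0.59 between Hipk1 and Hipk2, 0.30 between Hipk2 and Hipk3 and 0.0073 between Hipk1 and Hipk3. Within groups, the r of Hipk2 with Hipk3 was -0.57, so that libraries with more Hipk2 than their group mean tended to hold less Hipk3.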

How the data were processed

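The deposited signal holds gene counts of 20 BMDM libraries scaled per library. The authors mapped the reads with STAR to GRCm38, counted them per gene and strand with featureCounts, and divided them by DESeq2 size factors. The annotation used for counting is not given in the sources used here, and 14421 identifiers matched GENCODE M21. Whole reads were recovered from the smallest step of each column (100% of values whole within 0.02 reads). New size factors made from these reads were equal to the deposited ones. In PBS 4 and in BMDM–HG-exo 1 this step lies near 1. A listed gene had a median of 11 reads or more. No libraries of a group were copies (chi-square per degree of freedom 5.23 to 42.3 over 30 pairs).

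Log2(normalized count + 1) was fitted in limma 3.58.1 under R 4.3.3 (lmFit, eBayes with trend, two-sided, Benjamini-Hochberg over genes with a mean of 10 or more), separately for the 8 glucose and the 12 exosome libraries, and genes were called at an adjusted p under 0.05. For BMDM–HG-exo against the combined controls, the log2 change also had to reach 0.15 in either direction. Fold changes are on this scale. Members and ratios had exact permutation tests over libraries. On the recovered reads, edgeR 4.0.16 called 1904 genes in high glucose, 487 with BMDM–NG-exo and 32 with BMDM–HG-exo, and DESeq2 1.42.0 was a further alternative. The fits were tested on simulated data. Promoters came from RefSeq, where all 3 genes matched. Figures used Python 3.11.15 and matplotlib 3.10.9.

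The members and the 5 gene lists were chosen with earlier results of these data known. Named were the members, in each list and comparison the called genes (at most 4 by smallest p, the others by name only), direct partners of HIPK2, and the 5 genes most alike to each member. The ratios, the genes at the Hipk loci and the within-date differences were added after seeing the data. Other samples of the study were not analysed here.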

Additional observations from a re-analysis of the deposited data

Results flagged for a closer look

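Among 130 groups of 4 libraries checked, over the members, their ratios and the named genes, 2 held a library far from the other 3, and chance alone gives about 1 in 20. Gm43387, an intronic gene of the Hipk1 locus, was at 29.7 normalized counts in high glucose 2 and between 55.7 and 58.8 in the other high glucose libraries. Siah2 was at 302 normalized counts in high glucose 4 and between 378 and 389 in the others. No group of Hipk1, Hipk2 or Hipk3 values held such a library.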

How the results depend on the processing

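Hipk2 kept its direction and call in high glucose in every setting run (log2 fold change 0.27 to 0.38). In the tested comparisons, 120 of 126 member values kept their direction and their side of the threshold. For BMDM–NG-exo against PBS these include fits without a BMDM–HG-exo library, in which the direction could not change. In the comparisons with BMDM–HG-exo, which carry no call for members, 72 of 75 kept their direction, and Hipk1 (-0.0052) turned to 0.00060 under quantile normalization, 0.0029 without PBS 3 and 0.0082 without BMDM–HG-exo 2. Of the ratio values, 100 of 102 kept their direction, and Hipk2/Hipk3 for BMDM–NG-exo against PBS (-0.027) turned to 0.015 without BMDM–NG-exo 2 and 0.0097 without PBS 4. Hipk1 in high glucose was not called under quantile normalization (0.083) or without a variance trend (0.15), and there quantile normalization turned Hipk3 to -0.025. For BMDM–NG-exo against PBS, leaving out 1 library gave -0.025 to 0.0096 for Hipk1, turning its sign without PBS 3 or BMDM–NG-exo 3, and -3.93e-05 to 0.074 for Hipk2, turning its sign without BMDM–NG-exo 1. The cause was not tested.

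The 1914 genes called in high glucose (1116 higher, 798 lower) became 654 without a trend, and 1661 under quantile normalization, where 789 were higher and 872 lower, or 47.5% higher. With the library number as a replicate block, which takes the change from the 2 numbers present in both groups, they were 788. Of these, 721 were shared. The 12 list genes became 2 and 7 without a trend and with the block. For BMDM–NG-exo against PBS, 481 genes (147 higher, 334 lower) became 95 without a trend and 308 to 514 with 1 library left out. The 308 came without BMDM–NG-exo 3 and the 514 without BMDM–HG-exo 1, a library in neither group. The 5 list genes became 1 without a trend, 8 with DESeq2 and 3 to 6 with 1 library left out (3 without PBS 1 or BMDM–NG-exo 3). For BMDM–HG-exo against the controls, 29 genes (10 higher, 19 lower; 1511 at an unadjusted p under 0.05) became 47 with a pseudocount of 5, 19 under quantile normalization (9 higher, 10 lower), 1 without a trend, 49 with array weights, 127 with DESeq2 and 1 to 204 with 1 library left out (1 without BMDM–HG-exo 1, 204 without BMDM–NG-exo 3). The list genes called went from 0 to 1 with a pseudocount of 5, array weights or DESeq2, and to between 0 and 2 with 1 library left out. Single lists kept a similar count in 282 of 325 settings.

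By a correlation over all genes, little pairing by label date or number was seen. Same-date libraries correlated at 0.012 in their deviations from the group means (12 pairs, -0.019 to 0.055, other pairs -0.0039). Same-number glucose libraries correlated at 0.0084 (2 pairs). This does not speak for single genes. Within dates, Hipk2 with BMDM–HG-exo differed from BMDM–NG-exo by 0.19 to 0.23 and from PBS by 0.16 to 0.35. Nothing about pairing is read from these values, since the contrast chose Hipk2. In the glucose experiment only numbers 1 and 6 occur in both groups, so the replicate block takes the change from these 2 pairs. With it, Hipk2 was 0.29 higher in high glucose and still called (limma adjusted p = 2.344e-05). The other glucose libraries do not enter this estimate. For the exosome libraries the block was the label date. It gave 616 calls for BMDM–NG-exo against PBS, among them all 481 of the main fit, and 23 for BMDM–HG-exo. The low correlation therefore does not show that the dates are without effect. Depth limits the members little, since each value rests on at least 5046 reads.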
